A study of Drosophila melanogaster with 8 samples.

Results

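The genes described here encode the proteins of the cytosolic ribosome of Drosophila melanogaster. They are the rows of the count table whose FlyBase symbol, joined by gene identifier, starts with RpL (large subunit) or RpS (small subunit) and that had at least 1 CPM, the count scaled to the library total, in any of the 8 libraries. There were 82 such genes, 49 RpL and 33 RpS, among 10032 genes that passed the same level and 15348 genes in the table. The rule did not use any difference between libraries. The annotation holds 92 names with these prefixes. RpL19, RpL27A, RpL31, RpS10b and RpS12 had no row joined by identifier and were not analysed here. A further 5 rows were below 1 CPM: RpL10Aa had 0 counts in all 8 libraries, a value that allows up to 3, and RpL37-2, RpS10a, RpS28-like and RpS28a had at most 6 counts in any library. The best of these rows, RpS10a, reached 0.300 CPM, and the lowest of the 82 genes by its highest library, RpS19b, reached 5.62 CPM.

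The cytosolic ribosome is made of a small subunit, which reads the mRNA, and a large subunit, which joins amino acids into protein. In growing animal tissue the mRNAs of ribosomal proteins are among the most abundant, and the proteins are made in matched amounts for assembly in the nucleolus. In flies, loss of 1 copy of many of these genes gives the Minute phenotype, with slow development and thin bristles. Cells with such a loss are eliminated from imaginal discs when they lie next to wild-type cells, a process called cell competition, in which the transcription factor Xrp1 acts.

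RNA was sequenced from imaginal discs, the larval epithelia that form the adult body surface, of larvae that had left the food to wander. Each of 8 groups had 1 library, made per the labels' protocols from discs pooled over many larvae. Larvae were taken when they wandered, which happened later in some genotypes. In 7 groups the discs were eye-antennal discs that carried y, w and eyflp, an FLP recombinase driven by an eyeless enhancer. All 7 also carried act>y+>Gal4, UAS-GFP and a chromosome FRT82 e with tub-GAL80 over an FRT82 chromosome, so that these discs were mosaics of GFP-marked clones and other cells. The RasV12 library added UAS-Ras[V12], an always-active Ras, and was taken 5 days after egg laying (AEL). The BskDN library added UAS-Bsk[DN], a dominant-negative form of the Jun kinase Basket, and was taken 11 days AEL. The other 4 mosaic groups with a changed genotype had clones homozygous for scrib[2], an allele of the polarity gene scribble. They were scrib BskDN at 6 days AEL, RasV12 scrib BskDN at 6 days AEL, and RasV12 scrib at an early time, 7 days AEL, and a late time, 11 days AEL. A library labelled as scrib wing disc came from whole scrib[2]/scrib[1] animals at 6 days AEL and had no clones and no GFP. Control clones carried GFP alone and were taken 5 days AEL. Age differed between most groups, so genotype and age cannot be told apart in those comparisons.

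With 1 library per group, the differences cannot be set against any spread of replicates, and neither tests nor p-values are given. Levels are normalised CPM, counts scaled by library size and composition. Differences are log2 ratios of normalised CPM computed with a prior count of 2, and a gene was called higher or lower at 1.5-fold, provided the higher library had 5 CPM or more. Intervals after folds are exact 95% intervals of counting error for those 2 libraries only. The 8 libraries held 17152279 to 21027972 counts in genes. Ras85D lay between 419 and 1176.5 CPM in the 4 libraries with UAS-Ras[V12], against 242 to 294 CPM in the other 4. The bsk gene lay between 741 and 1859 CPM in the 3 libraries with UAS-Bsk[DN], against 93.9 to 109 CPM in the other 5. The scrib gene lay between 362 and 490.0 CPM throughout, which does not check that label, since an allele without function can keep its RNA.

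Markers of the tissue and of tissues that a dissection can carry along were read next. All 7 eye disc markers and all 5 antennal markers were detected. The eye markers summed to 235 CPM in the library labelled wing disc, against 501 to 1330.3 CPM in the 6 other changed genotypes and 1316 CPM in control. The wing disc markers vg, nub and Antp summed to 6.13 CPM there and 19.3 CPM in control, and the antennal markers to 901 CPM there and 870.0 CPM in control. The low wing markers go against the wing label, while the low eye markers go against an eye disc. The listed wing marker ap had no row joined by symbol. Which tissue this was could not be settled, and the library is called the scrib mutant library below. Muscle markers summed to 222 to 663 CPM in the 7 other libraries, against 5267 CPM in control. Salivary gland markers summed to 1388 CPM in RasV12, to 823 CPM in scrib BskDN and to at most 44.5 CPM in the rest. Fat body markers summed to 5202 CPM in BskDN, against 31.9 to 1262 CPM in the rest. Neuron markers lay between 99.3 and 683 CPM, highest in late RasV12 scrib and scrib BskDN, and blood cell markers between 353 and 1998 CPM, highest in control. In bulk samples such as these, fewer cells of a type and less RNA per cell cannot be told apart.

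A pair of libraries stood apart in the ribosomal protein genes before any comparison was made: scrib BskDN and early RasV12 scrib. The 82 genes took 9.57% of the counts in scrib BskDN and 11.9% in early RasV12 scrib. They took 15.6% in RasV12, 13.7% in BskDN, 14.5% in RasV12 scrib BskDN, 13.9% in late RasV12 scrib, 16.05% in the scrib mutant library and 14.8% in control. Exact binomial 95% intervals were at most 9.58% for scrib BskDN and 11.9% for early RasV12 scrib, and at least 13.7% for the rest. The RpL and the RpS genes were both low. The RpL genes took 5.72% and the RpS genes 3.85% of counts in scrib BskDN, and 7.13% and 4.80% in early RasV12 scrib, against 8.71% and 6.12% in control. With reads that HTSeq tallied outside genes in the total, the share was 9.14% in late RasV12 scrib, below the 9.38% in early RasV12 scrib, so the place of early RasV12 scrib in that order depends on the total used.

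**Figure D1:**
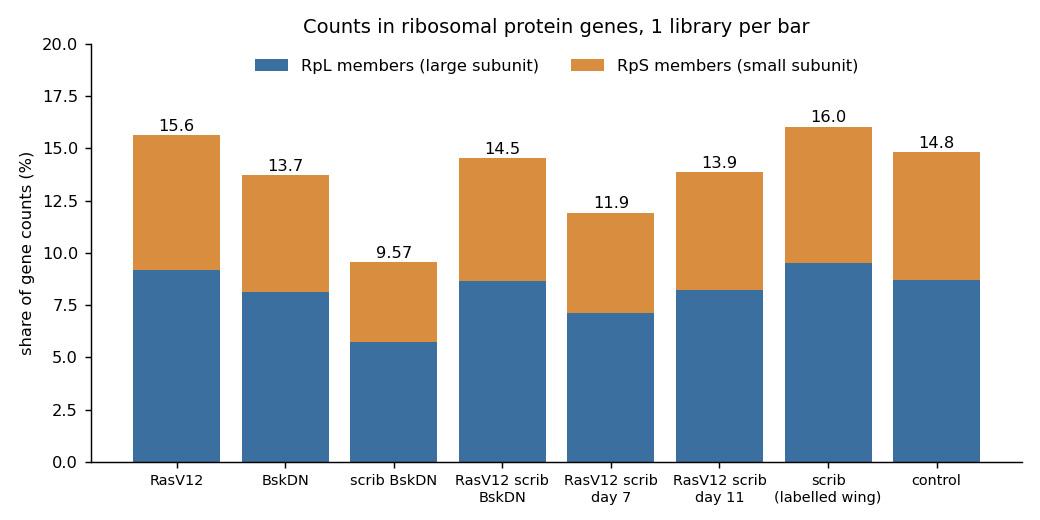
Share of all gene counts (%) in the 49 RpL and 33 RpS genes, as stacked bars, 1 library per bar. The scrib BskDN bar ends at 9.57% and the early RasV12 scrib bar (day 7) at 11.9%, while the other 6 end between 13.7% and 16.05%.

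Those same 2 libraries were also apart in the reads outside genes. Reads in no annotated feature made up 4.21% of all counted and tallied reads in scrib BskDN and 3.41% in early RasV12 scrib, against 4.81 to 7.33% in the rest. Reads with more than 1 alignment made up 14.8% and 16.2%, against 18.4 to 27.8% in the rest. The 771 other genes with a coding sequence of at most 450 nucleotides took 3.19% and 3.50% of gene counts, against 3.67 to 4.68% in the rest. In none of the marker lists were scrib BskDN and early RasV12 scrib both at the top or both at the bottom of the 8 libraries. The part of library quality in the results below was not tested.

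Ribosomal protein mRNAs were among the highest in the discs. Their median level in control was 1825 CPM, against 30.6 CPM over all genes considered, and 76 of the 82 genes had at least 100 CPM in every library. Per kilobase of transcript, RpL41 was highest in control at 16185 CPM per kb. It encodes the smallest ribosomal protein, and its coding sequence has 75 nucleotides. RpL39, whose protein lines the exit tunnel, had 6031 CPM per kb in control, followed by RpL36 at 4855, RpLP2 at 4595 and RpL10 at 4560.1. The lowest were RpL22-like at 2.87 CPM per kb, RpS5b at 3.39 and RpS19b at 3.92, and then RpL7-like at 91.8 and RpLP0-like at 98.1. Of the 4 highest genes, only RpL41 kept a similar place in scrib BskDN, where it ranked 2 of 82 at 2485 CPM per kb. RpL39 ranked 61, RpL36 ranked 64 and RpLP2 ranked 69 there. RpL41 ranked 1 in early RasV12 scrib, where RpL39 ranked 14, RpL36 ranked 67 and RpLP2 ranked 70.

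In 5 of the 7 libraries set against control, the ribosomal protein genes lay close to control. No gene was called lower and 1 higher in RasV12, where the background over all genes was 7.8% lower and 4.44% higher and the median of the 82 genes was 0.05. BskDN had no call in either direction, beside 7.38% lower and 5.78% higher over all genes, and a median of -0.08. RasV12 scrib BskDN had 0 lower and 2 higher, beside 8.01% and 5.4% over all genes, and a median of -0.08. Late RasV12 scrib had 1 lower and 1 higher, beside 13.1% and 14.2%, and a median of -0.12. The scrib mutant library had 0 lower and 1 higher, beside 10.6% and 6.01%, and a median of 0.16, with 78 of the 82 genes above 0. RasV12 had 55 above 0, while 65 were below 0 in BskDN, 70 in RasV12 scrib BskDN and 68 in late RasV12 scrib. All of these shares of members called were below the background. In these 5 comparisons, which share the control library, 78 genes were called in none, and the 4 that were called are RpS5b, RpS19b, RpL22-like and RpS15Ab. The SD of the differences over genes with at least 100 CPM was 0.09 to 0.13 in these 5 comparisons.

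In the other 2 libraries most calls were downward, with 5 of the 82 genes above 0 in scrib BskDN over control and 30 of 82 in early RasV12 scrib over control. In scrib BskDN over control, 45 of 82 genes (54.9%) were lower, 23 RpL and 22 RpS, and none was higher, where 17.2% of all genes were lower and 10.4% higher. Their median difference was -0.78, with a range of -4.35 to 0.16, and the median over all genes was -0.09. In early RasV12 scrib over control, 27 of 82 genes (32.9%) were lower, 12 RpL and 15 RpS, and 1 was higher, where 12.6% of all genes were lower and 7.06% higher. The median was -0.19, with a range of -3.70 to 0.86, and the median over all genes was 0.00. The SD of the differences over genes with at least 100 CPM was 0.81 in scrib BskDN over control and 0.69 in early RasV12 scrib over control. The 2 comparisons share the control library, so agreement between them is not read here. Of all 82 genes, 73 had their lowest level of the 8 libraries in scrib BskDN, and 56 their highest in the scrib mutant library.

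**Figure D2:**
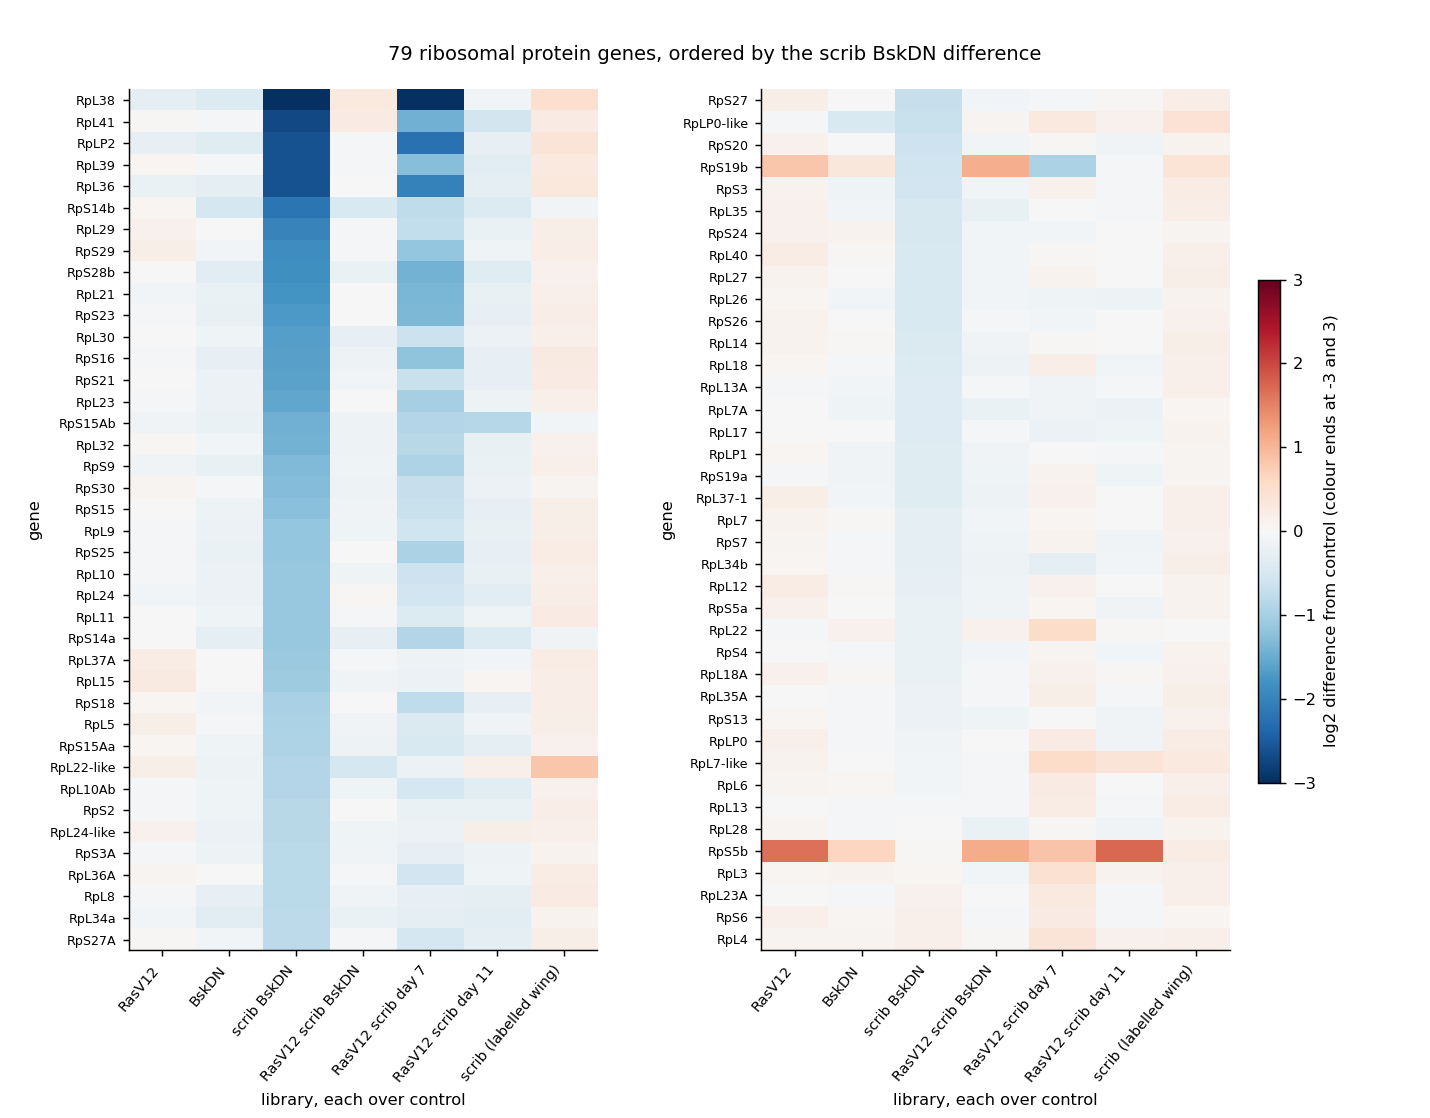
Log2 difference of 79 of the 82 genes (rows) in each of 7 libraries (columns) over control, 1 library per column, ordered by the scrib BskDN difference; colours end at -3 and 3. The scrib BskDN column runs from -4.35 to 0.16 and the day 7 RasV12 scrib column from -3.70 to 0.86, while the other columns are pale except for RpS5b, RpS19b, RpL22-like and RpS15Ab.

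Each of the 2 libraries was then set against the library that shares its transgene and lacks the scrib allele, which gives 2 comparisons with no library in common. Scrib BskDN at 6 days AEL over BskDN at 11 days AEL had 41 of 82 genes lower and none higher, where 11.7% of all genes were lower and 9.22% higher, with a median of -0.65. Early RasV12 scrib at 7 days AEL over RasV12 at 5 days AEL had 29 lower and 1 higher, where 10.3% of all genes were lower and 7.96% higher, with a median of -0.26. The genes lower in both numbered 28, which is 68.3% of the first group and 96.6% of the second. For 5442 other genes with a mean of at least 20 CPM, 226 were lower in both, 34.7% of the first group and 43.1% of the second. Over the 82 genes the 2 sets of differences had a Pearson correlation of 0.914 and a Spearman correlation of 0.921. Over the other genes these were 0.0840 and 0.268. The other genes were not matched to the 82 in coding length or level. Of them, 4268 had over 900 coding nucleotides, where the median of the 82 is 468. Genes of carried-along tissues were not removed from them. The correlations are descriptions across genes, which are not independent replicates, and each library enters with all of its own depth and composition.

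**Figure D3:**
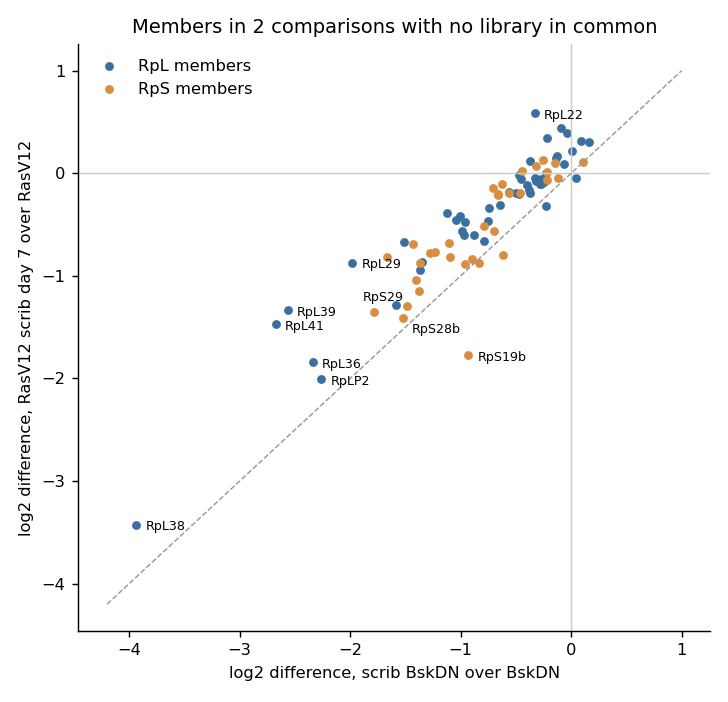
Log2 difference of each of the 82 genes in early RasV12 scrib (day 7) over RasV12 (vertical) against scrib BskDN over BskDN (horizontal), RpL in blue and RpS in orange; the dashed line marks equal values. RpL38 is at the far corner with -3.94 and -3.43, RpL22 stands above 0 on the vertical axis at 0.59, and RpS19b, with few counts, lies below the line.

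The 28 genes lower in both were 13 RpL and 15 RpS. The RpL genes were RpL5, RpL10, RpL21, RpL23, RpL29, RpL30, RpL32, RpL36, RpL36A, RpL38, RpL39, RpL41 and RpLP2. The RpS genes included RpS9, RpS14a, RpS14b, RpS15, RpS15Ab, RpS16, RpS18, RpS21, RpS23, RpS25, RpS28b, RpS29 and RpS30. Their median difference was -1.39 in scrib BskDN over BskDN and -0.88 in early RasV12 scrib over RasV12. In RasV12 scrib BskDN over control, by contrast, they ran from -0.46 to 0.29 with a median of -0.08. In late RasV12 scrib over control they ran from -0.84 to -0.08 with a median of -0.23. The genes lower in neither had a median of -0.05 there. Lower in scrib BskDN over BskDN alone were 13 genes, RpL9, RpL10Ab, RpL11, RpL15, RpL24, RpL24-like, RpL37A, RpS2, RpS3A, RpS15Aa, RpS20, RpS27 and RpS27A. Called lower in early RasV12 scrib over RasV12 alone was RpS5b. In scrib BskDN over BskDN it was at -0.61, past 1.5-fold, but was not called, at 3.18 and 4.93 CPM. The 40 genes lower in neither were 29 RpL and 11 RpS, with medians of -0.27 and -0.04 in the same 2 comparisons. Their lowest values were -0.93 and -1.77, both of RpS19b. It was past 1.5-fold in both but was not called, since it stayed below 5 CPM in those libraries. RpL22-like, at 1.86 CPM in scrib BskDN and 3.20 CPM in BskDN, was past 1.5-fold there and not called for the same reason. The 40 genes include RpL3, RpL4, RpL6, RpL7, RpL7A, RpL8, RpL13, RpL22, RpL23A, RpLP0 and RpLP1, and of the small subunit RpS3, RpS4, RpS5a, RpS6, RpS7, RpS13, RpS19a, RpS24 and RpS26.

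The gene with the largest difference was RpL38, which encodes a small protein of the large subunit (FBgn0040007, 2R:4515388-4516458, minus strand, in the BDGP6.54 annotation, which may not be the build the authors used). Its level was 124 CPM in scrib BskDN and 196 CPM in early RasV12 scrib. In the other libraries it was 2110.3 in RasV12, 1902 in BskDN, 3113 in RasV12 scrib BskDN, 2403.5 in late RasV12 scrib, 3589 in the scrib mutant library and 2543 in control. The 2 low libraries and the other 6 do not overlap. RpL38 was 15.3-fold lower (95% interval 14.7 to 15.9) in scrib BskDN than in BskDN. It was 10.8-fold lower (95% interval 10.4 to 11.1) in early RasV12 scrib than in RasV12. The scrib mutant library was the highest, and RasV12 scrib BskDN the next.

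The stalk of the large subunit, which recruits elongation factors, is formed by RpLP0 and by the acidic proteins RpLP1 and RpLP2, which bind it in pairs. RpLP2 (2R:16586129-16586732) was at 450.2 CPM in scrib BskDN and 586 CPM in early RasV12 scrib, against 2159 to 3644 CPM in the other 6 libraries, and was 4.02-fold lower (95% interval 3.94 to 4.10) in early RasV12 scrib than in RasV12. RpLP1 was at 1444 CPM in scrib BskDN and 1838 CPM in early RasV12 scrib, against 1716.5 to 1961 CPM in the other 6. RpLP0 was at 2115 CPM in scrib BskDN and 2716 CPM in early RasV12 scrib, against 2138 to 2672 CPM. In early RasV12 scrib RpLP2 alone of the 3 lay below the other 6 libraries. The ratio of RpLP2 to RpLP1 counts, which no scaling between libraries can move, was 0.312 in scrib BskDN and 0.319 in early RasV12 scrib. It was 1.21 in RasV12, 1.26 in BskDN, 1.55 in RasV12 scrib BskDN, 1.32 in late RasV12 scrib, 1.86 in the scrib mutant library and 1.49 in control. The coding sequences of RpLP2 and RpLP1 are of like length, at 339 and 336 nucleotides, while their median annotated transcripts have 604 and 684.5 nucleotides.

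RpL36, RpL39 and RpL41, all of the large subunit, were also far below the other libraries. In scrib BskDN over BskDN the order after RpL38 was RpL41 at -2.67, RpL39 at -2.56, RpL36 at -2.34 and RpLP2 at -2.26. RpL36 (X:628338-629483) was at 443 CPM in scrib BskDN and 659 CPM in early RasV12 scrib. It was 2362 in RasV12, 2241 in BskDN, 2732 in RasV12 scrib BskDN, 2190.4 in late RasV12 scrib, 3344 in the scrib mutant library and 2695 in control. RpL41 (2R:24903416-24903935) was at 795 CPM in scrib BskDN and 1918 CPM in early RasV12 scrib, with 3552 CPM in late RasV12 scrib and 5067 to 6174.5 CPM in the other 5. RpL39 (2R:24061853-24062431) was at 282 CPM in scrib BskDN and 719.9 CPM in early RasV12 scrib, with 1365 CPM in late RasV12 scrib and 1671 to 2111.5 CPM in the other 5. All 3 had scrib BskDN lowest and early RasV12 scrib next, and late RasV12 scrib came next for RpL36, RpL39 and RpL41. RpL39 shares exon bases with RpL12 on the other strand. In all, 25 of the 82 genes share exon bases with another annotated gene, RpL29, RpS28b, RpS29, RpL3, RpS6, RpL22, RpL23A and RpLP0-like among them, and the sources used here do not say whether the counting used strand. RpL12 itself was at 1224 CPM in scrib BskDN and 1581.5 CPM in early RasV12 scrib, against 1331 to 1701 CPM in the other 6.

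In the small subunit RpS29, RpS28b, RpS23 and RpS16 were among those furthest below the other 6 libraries in these 2. RpS29, a small zinc-binding protein, was at 594 CPM in scrib BskDN and 966 CPM in early RasV12 scrib, against 1976 to 2501 CPM in the other 6. RpS28b was at 562 CPM in scrib BskDN and 743 CPM in early RasV12 scrib, against 1558 to 2196 CPM. RpS23, a protein of the decoding site, was at 859 CPM in scrib BskDN and 1109 CPM in early RasV12 scrib, against 2376 to 3231 CPM. RpS16 was at 812 CPM in scrib BskDN and 1092 CPM in early RasV12 scrib, against 2109 to 3045 CPM. For these 4 genes the 2 low libraries and the other 6 do not overlap. Over all RpS genes the median difference of scrib BskDN over BskDN was -0.79, and over all RpL genes -0.47. For early RasV12 scrib over RasV12 these were -0.68 and -0.19.

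The remaining large subunit genes that were lower in both comparisons had the same 2 libraries at the bottom. RpL29 was at 196 CPM in scrib BskDN and 467 CPM in early RasV12 scrib, against 685 to 889 CPM in the other 6. RpL21 was at 862 CPM in scrib BskDN and 1147 CPM in early RasV12 scrib, against 2536 to 3307 CPM in the other 6. RpL30 was at 439 CPM in scrib BskDN and 878 CPM in early RasV12 scrib, against 1161 to 1529.8 CPM. These 3 genes were -1.98, -1.58 and -1.51 in scrib BskDN over BskDN, and -0.87, -1.28 and -0.67 in early RasV12 scrib over RasV12. RpL32, long used as a reference gene in fly work, was at 602 CPM in scrib BskDN and 904 CPM in early RasV12 scrib, against 1390.4 to 1764 CPM. RpL23, which lies at the interface of the subunits, was at 783 CPM in scrib BskDN and 1142 CPM in early RasV12 scrib, against 2023 to 2545 CPM. RpL36A was at 719 CPM in scrib BskDN and 842 CPM in early RasV12 scrib, against 1149.9 to 1464 CPM.

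Among the remaining small subunit genes, RpS9 and RpS2 lie with RpS3 at the channel through which mRNA enters. RpS9 was at 1381 CPM in scrib BskDN and 1802 CPM in early RasV12 scrib, against 2949.9 to 3855.5 CPM in the other 6. RpS2 was at 2167 CPM in scrib BskDN and 3381 CPM in early RasV12 scrib, against 3343 to 4401 CPM, and RpS3 at 1739 CPM in scrib BskDN and 2859 CPM in early RasV12 scrib, against 2374 to 3063 CPM. Of these 3, RpS9 was lower in both comparisons, RpS2 in scrib BskDN over BskDN alone and RpS3 in neither. RpS15 and RpS18, both of the head of the subunit, were at 918 and 1077 CPM in scrib BskDN, 1380.3 and 1249 CPM in early RasV12 scrib, and 2196 and 2122.5 CPM in control. RpS20, also of the head, was at 773 CPM in scrib BskDN and 1227 CPM in early RasV12 scrib, against 1198 CPM in control. RpS25 was at 1005 CPM in scrib BskDN and 1167 CPM in early RasV12 scrib, against 1903 to 2599 CPM.

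RpL5 and RpL11, which join the 5S RNA before entering the large subunit, kept a like ratio. RpL5 was at 2075 CPM in scrib BskDN and 2954 CPM in early RasV12 scrib, against 3698 to 4542 CPM in the other 6, and RpL11 was at 924 CPM in scrib BskDN and 1527 CPM in early RasV12 scrib, against 1838 to 2393 CPM. The ratio of RpL11 to RpL5 counts lay between 0.445 and 0.527 in all 8 libraries. RpL10, which joins the large subunit late in its assembly, was at 1625 CPM in scrib BskDN and 2336 CPM in early RasV12 scrib, against 3077 to 4022.5 CPM. After the median of the 82 genes was subtracted in each library, RpL5 varied least, with an SD of 0.04 over the 8 libraries, followed by RpS15Aa, RpL10Ab, RpL10 and RpL36A. RpL38 varied most, with an SD of 1.57, followed by RpLP2 at 0.79, RpL36 at 0.74, RpL41 at 0.70 and RpS5b at 0.67. RpS27A, RpL40 and RpS30 are made as fusions to ubiquitin or a ubiquitin-like protein. RpS27A was at 1329 CPM in scrib BskDN and 1589 CPM in early RasV12 scrib with 2288 CPM in control, RpS30 at 686 CPM in scrib BskDN and 1054 CPM in early RasV12 scrib with 1701 CPM in control, and RpL40 at 1144 CPM in scrib BskDN and 1615 CPM in early RasV12 scrib with 1584 CPM in control.

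Several genes were not called lower in either comparison. RpL4, whose protein reaches into the exit tunnel, was at 2685 CPM in scrib BskDN and 3157 CPM in early RasV12 scrib. It was 2539.8 in RasV12, 2531 in BskDN, 2455 in RasV12 scrib BskDN, 2607 in late RasV12 scrib, 2643 in the scrib mutant library and 2397 in control. RpL3, a protein near the peptidyl transferase centre, was at 2567 CPM in scrib BskDN and 3356 CPM in early RasV12 scrib, against 2304 to 2738 CPM in the other 6, so that early RasV12 scrib was the highest library. RpS6, the target of S6 kinase, was at 2086 CPM in scrib BskDN and 2222 CPM in early RasV12 scrib, against 1798 to 2065 CPM. RpL23A was at 2202 CPM in scrib BskDN and 2465 CPM in early RasV12 scrib, against 1935.5 to 2244 CPM. RpL22 was at 425 CPM in scrib BskDN and 719.7 CPM in early RasV12 scrib, against 479.5 to 533 CPM. RpL22 was the single gene called higher in early RasV12 scrib over RasV12, at 1.5-fold (95% interval 1.46 to 1.54), and its interval spans the 1.5-fold threshold; the call was lost under upper-quartile scaling, under library totals, without the 82 genes in the scaling and with the low-count filter off. The ratio of RpL38 to RpL4 counts was 0.0463 in scrib BskDN and 0.0621 in early RasV12 scrib. It lay between 0.752 and 1.36 in the other 6, with 1.06 in control. RpL36 to RpL4 gave 0.165 and 0.209, against 0.840 to 1.27.

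Genes that were lower in scrib BskDN over BskDN alone had early RasV12 scrib nearer to the rest. RpL24, which forms a bridge between the subunits, was at 1109.9 CPM in scrib BskDN and 1639 CPM in early RasV12 scrib, against 1963 to 2799 CPM in the other 6. RpL15 was at 947 CPM in scrib BskDN and 1742 CPM in early RasV12 scrib, against 1848 to 2386 CPM, and RpL9 at 927 CPM in scrib BskDN and 1369 CPM in early RasV12 scrib, against 1778.5 to 2349 CPM. RpL10Ab was at 1663 CPM in scrib BskDN and 2115.5 CPM in early RasV12 scrib, against 2469 to 3358 CPM. RpS15Aa was at 1056 CPM in scrib BskDN and 1467 CPM in early RasV12 scrib, against 1644 to 2208 CPM. All 5 had scrib BskDN as their lowest library and early RasV12 scrib as the next.

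Large subunit genes lower in neither comparison included RpL7A and RpL8, at 2316 and 1814 CPM in scrib BskDN, 2834 and 2662 CPM in early RasV12 scrib, and 3041 and 3158 CPM in control. RpL6 was at 1757 CPM in scrib BskDN and 2199.6 CPM in early RasV12 scrib, against 1810.4 to 2044 CPM in the other 6, and RpL7 at 1986 CPM in scrib BskDN and 2546 CPM in early RasV12 scrib, against 2288 to 2712 CPM. RpL28 was at 1290.5 CPM in scrib BskDN and 1325 CPM in early RasV12 scrib, against 1132 to 1401 CPM. In scrib BskDN it lay within that range, where the other 7 genes named with it lay below theirs. In the small subunit RpS4 was at 2039 CPM in scrib BskDN and 2475 CPM in early RasV12 scrib, against 2188 to 2508 CPM. RpS24 was at 953 CPM in scrib BskDN and 1257 CPM in early RasV12 scrib, against 1253 to 1440.2 CPM, and RpS13 at 1473 CPM in scrib BskDN and 1683 CPM in early RasV12 scrib, against 1527 to 1838 CPM. In early RasV12 scrib all 8 of these genes lay within the range of the other 6 libraries or, for RpL6, above it.

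The differences in the 2 low libraries went with coding length. In scrib BskDN over BskDN the median difference was -1.65 for the 10 genes with at most 300 coding nucleotides, -0.96 for 23 genes of over 300 to 450, -0.56 for 22 genes of over 450 to 600, -0.32 for 21 genes of over 600 to 900 and -0.03 for the 3 longest. The same classes had medians of -1.10, -0.67, -0.32, -0.05 and 0.31 in early RasV12 scrib over RasV12. The Spearman correlation between coding length and difference, over 79 genes with a mean of at least 20 CPM, was 0.614 in the first comparison and 0.631 in the second. Other genes showed the same order: in scrib BskDN over BskDN their medians were -0.85, -0.53, -0.31, -0.25 and -0.05 over 101, 212, 270, 591 and 4268 genes. Over RasV12, early RasV12 scrib gave -0.49, -0.33, -0.20, -0.09 and 0.08 for them. Over the 5442 other genes the Spearman correlation was 0.360 in the first comparison and 0.259 in the second. In the shortest class 90.0% of ribosomal protein genes and 62.4% of other genes were lower in scrib BskDN over BskDN. The median coding length of the 82 genes is 468 nucleotides. With RasV12 scrib BskDN over control no class of ribosomal protein genes had a median below -0.12 and the correlation was 0.06, against 0.05 for other genes. For ribosomal protein genes it was 0.34 in late RasV12 scrib over control and 0.18 in BskDN over control, and 0.26 and 0.31 for other genes. In the scrib mutant library and RasV12 over control it was -0.18 and -0.08, and -0.04 and -0.02 for other genes. A trend with coding length was thus also present in some libraries outside the 2 low ones, and its sign differed between them. Base composition was not computed, and the part of transcript length in the results was not tested.

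**Figure D4:**
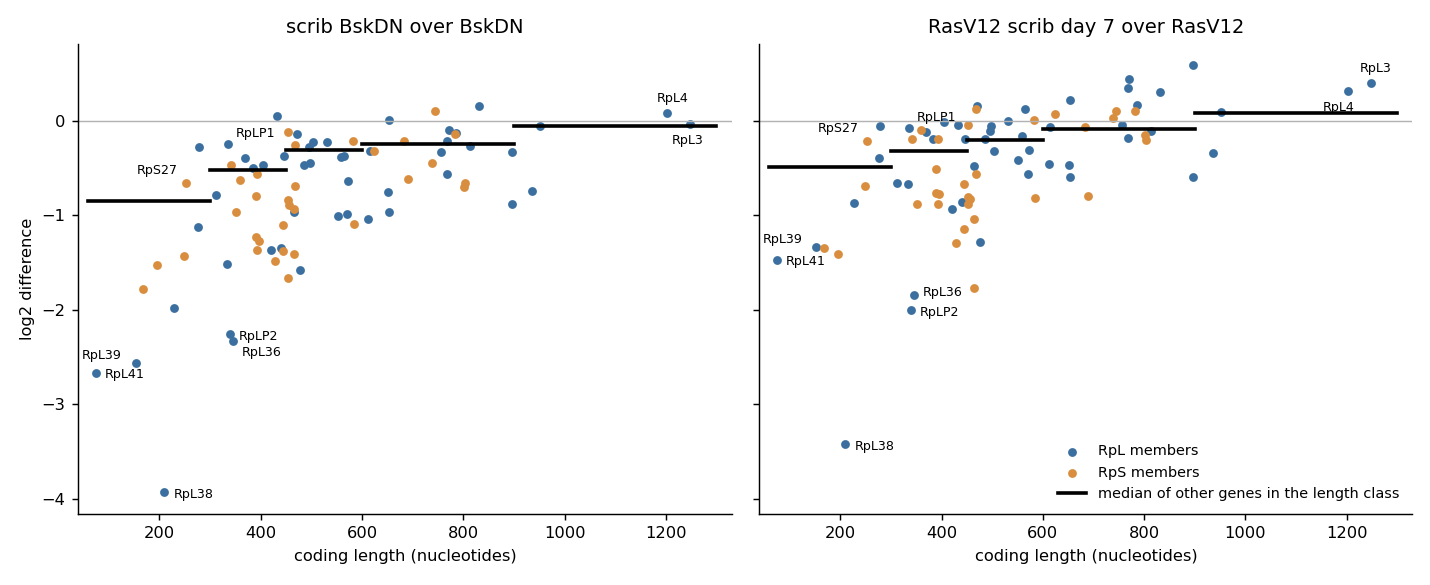
Log2 difference of each of the 82 genes against the coding length of its canonical transcript in nucleotides, in scrib BskDN over BskDN (left) and early RasV12 scrib over RasV12 (right); black bars are medians of other genes in 5 length classes, the last of which holds all genes over 900 nucleotides though it is drawn to the edge of the panel. Short genes lie lowest in both panels, from -3.94 for RpL38 on the left and -3.43 on the right, while RpLP1, of 336 nucleotides, lies at -0.25 and -0.08.

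Genes of like coding length also differed from each other in the same library. RpL37A (276 nucleotides) was at 469 CPM in scrib BskDN and 914 CPM in early RasV12 scrib, against 1022 CPM in control, and RpL37-1 (279 nucleotides) was at 1151 CPM in scrib BskDN and 1597 CPM in early RasV12 scrib, against 1471 CPM in control. RpS21 (249 nucleotides) was at 372 CPM in scrib BskDN and 703 CPM in early RasV12 scrib, against 1124 CPM in control. RpS27 (252 nucleotides) was at 805 CPM in scrib BskDN and 1261 CPM in early RasV12 scrib, against 1291 CPM in control. RpL36 (345 nucleotides) stood beside RpS26 (342 nucleotides), which was at 1247 CPM in scrib BskDN and 1594.5 CPM in early RasV12 scrib, against 1699.6 CPM in control. Whole transcripts were not alike in length. Their annotated medians were 583 nucleotides for RpL37A and 930.5 for RpL37-1, 494 for RpS21 and 708 for RpS27. They were 555 for RpL36 and 1046 for RpS26. In each pair the gene with the longer transcript was higher relative to control in both libraries. A part of transcript length in these pairs was not tested. These pairs were chosen after their values were seen. Among genes over 600 coding nucleotides, RpL10, RpL5 and RpS3A were lower in scrib BskDN over BskDN, at -0.97, -0.88 and -0.66, while RpL3, RpL4 and RpL23A of that class were at -0.03, 0.08 and 0.16. In all, 9 genes of over 600 nucleotides were lower in scrib BskDN over control, of 45 at all lengths, and 1 in early RasV12 scrib over control, of 27. In the class of over 600 to 900 nucleotides, 42.9% of ribosomal protein genes and 30.5% of other genes were lower in scrib BskDN over control. In early RasV12 scrib over control these shares were 4.76% and 13.5%.

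RasV12 scrib BskDN, which has 1 further change from either genotype, did not show the pattern. In late RasV12 scrib the 28 genes lower in both were still all below control, with a median of -0.23. RasV12 scrib BskDN at 6 days AEL differs from scrib BskDN at 6 days AEL by UAS-Ras[V12]. It had 45 of 82 genes higher and none lower, where 12.3% of all genes were higher and 10.2% lower. The median was 0.71, with RpL38 at 4.65, RpL41 at 2.95 and RpL36 at 2.62. RasV12 scrib BskDN over early RasV12 scrib, 6 against 7 days AEL and apart by UAS-Bsk[DN], had 23 higher and 1 lower, where 10.9% of all genes were higher and 8.87% lower. The lower gene was RpL7-like, at -0.60, and the highest were RpL38 at 3.99, RpLP2 at 2.20 and RpL36 at 2.05. Late over early RasV12 scrib, the same genotype at 11 and 7 days AEL, had 17 higher and none lower, where 12.4% of all genes were higher and 4.88% lower. There RpL38 was at 3.61, RpLP2 at 2.00 and RpL36 at 1.73, while RpL22, RpL3 and RpL23A were at -0.53, -0.36 and -0.35. All 3 comparisons have one of the 2 low libraries as their base, so they describe those libraries again from other sides. In late RasV12 scrib over control RpL41 was at -0.54 and RpS14b at -0.42, both short of the 1.5-fold threshold.

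Over the 6 remaining libraries the ribosomal protein genes varied little. The median SD of log2 CPM was 0.133 over those 6 libraries, against 0.198 for 5442 other genes with a mean of at least 20 CPM and 0.201 for 1971 others with at least 100 CPM. Over all 8 libraries it was 0.314, against 0.240 and 0.224. They thus varied more than other genes with the 2 low libraries included, and less without them. Those 2 libraries were left out because these genes were low there, so a fall in their SD was built in. The other genes were not matched to the ribosomal protein genes in level, which had a median of 1825 CPM in control. In the scrib mutant library over control RpL38 at 0.50 and RpLP0-like at 0.44 were among the highest genes above 20 CPM. In RasV12 over control RpL15 was at 0.27 and RpL38 at -0.27. BskDN over control had RpS14b at -0.52, RpLP0-like at -0.45 and RpL38 at -0.42, and RpL22 at 0.12 was the highest above 20 CPM. RpL38 was thus also among the 3 most distant genes at that level in RasV12, BskDN, RasV12 scrib BskDN and the scrib mutant library, at 0.29 in RasV12 scrib BskDN over control. The 13 genes on the X chromosome and the 69 others had medians of -0.39 and -0.80 in scrib BskDN over control, and of -0.10 and -0.19 in early RasV12 scrib over control.

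Several ribosomal proteins have a pair of genes, of which 1 was higher in all 8 libraries. RpS14a and RpS14b are neighbouring, near-identical copies, and reads with more than 1 alignment are tallied outside genes, so their split is uncertain. RpS14b was at 131 CPM in scrib BskDN and 353 CPM in early RasV12 scrib, with 415 to 620.0 CPM in the other 5 and 597 CPM in control, and RpS14a at 577 CPM in scrib BskDN and 686 CPM in early RasV12 scrib, with 1263 CPM in control. The ratio of RpS14b to RpS14a counts was 0.227 in scrib BskDN and 0.403 to 0.514 in the other 7. RpS15Ab, a low-level copy of RpS15Aa, was at 46.7 CPM in scrib BskDN and 69.1 CPM in early RasV12 scrib, 70.4 CPM in late RasV12 scrib, 109.6 to 119.7 CPM in RasV12, BskDN, RasV12 scrib BskDN and the scrib mutant library, and 126 CPM in control. It was the gene called lower in late RasV12 scrib over control. RpL34a and RpL34b had counts in a ratio of 0.244 to 0.348 in all 8 libraries.

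RpS5b, RpS19b and RpL22-like, which are known from the fly gonads, were at the bottom of the range, and they were below 11 CPM in every library. RpS5b was at 3.18 CPM in scrib BskDN, 5.70 CPM in early RasV12 scrib, 10.5 CPM in late RasV12 scrib, 6.76 CPM in RasV12 scrib BskDN discs, 3.63 CPM in the scrib mutant library, 9.95 CPM in RasV12, 4.93 CPM in BskDN and 3.10 CPM in control. These values rest on 56 to 211 counts. The 4 libraries with UAS-Ras[V12] were the 4 highest, and control was the lowest. Early RasV12 scrib and BskDN, neighbours in that order, had counting intervals of 4.72 to 6.82 and 3.98 to 6.03 CPM, which overlap. It was the 1 gene called higher in RasV12 over control, at 3.21-fold (95% interval 2.38 to 4.40), the 1 called higher in early RasV12 scrib over control, at 1.84-fold (95% interval 1.33 to 2.58), and the 1 called higher in late RasV12 scrib over control, at 3.39-fold (95% interval 2.51 to 4.63). In RasV12 scrib BskDN over control it was called higher at 2.18-fold (95% interval 1.59 to 3.03), together with RpS19b at 2.16-fold (95% interval 1.53 to 3.10). RpS5a, its namesake, lay between 1837 and 2306 CPM in all 8 libraries. RpS19b was at 5.62 CPM in RasV12 scrib BskDN, 4.70 in RasV12, 1.30 in early RasV12 scrib and 2.60 in control. RpL22-like was at 6.38 CPM in the scrib mutant library, where it was called higher at 1.80-fold (95% interval 1.31 to 2.50), and 3.54 CPM in control. Of the 12 germline genes listed as markers 10 had a row, and zpg, osk, dj and betaTub85D were at 0 in at least 1 library. Those 10 summed to 172 to 325 CPM, highest in scrib BskDN, of which ovo, a gene with a form in the epidermis, made up 309 CPM there, against 155 CPM in control. The part of germline cells was not tested.

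The yeast counterparts of RpL7-like, RpL24-like and RpLP0-like act in assembly of the large subunit and are not part of the finished ribosome. RpL7-like was at 83.0 CPM in scrib BskDN and 128 CPM in early RasV12 scrib, against 84.4 to 114 CPM in the other 6. RpLP0-like was at 58.6 CPM in scrib BskDN and 114 CPM in early RasV12 scrib, against 68.2 to 127 CPM. RpL24-like was at 131 CPM in scrib BskDN and 203 CPM in early RasV12 scrib, against 204 to 261 CPM. All 3 therefore had scrib BskDN lowest, and early RasV12 scrib was the highest library for RpL7-like.

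**Figure D5:**
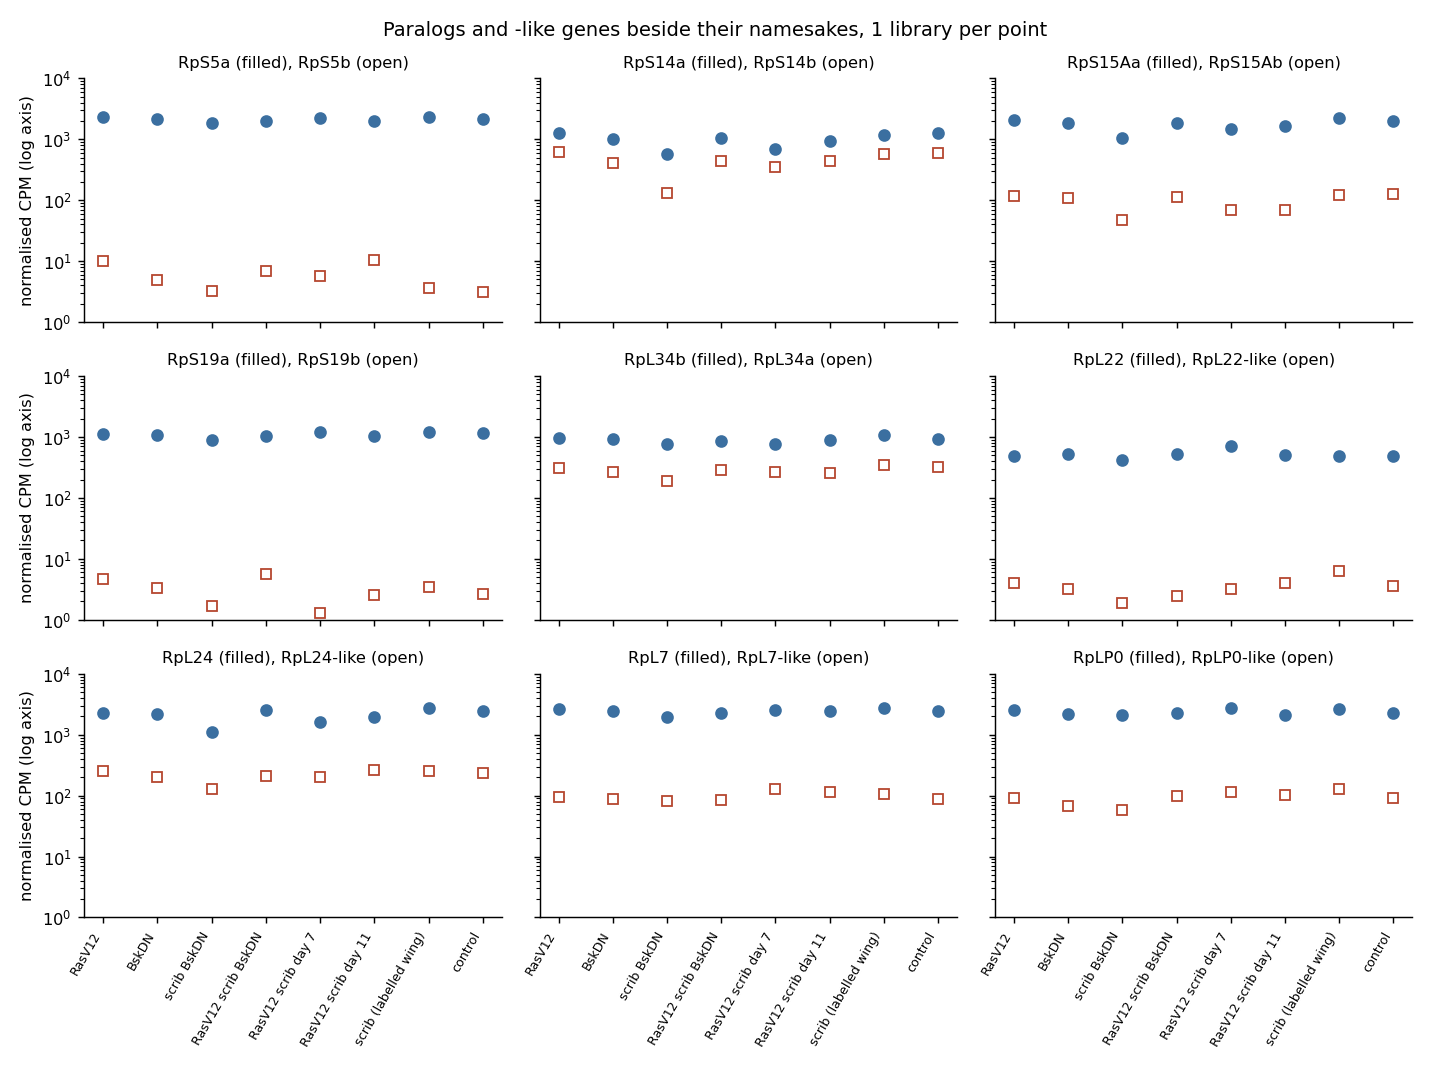
Normalised CPM on a log axis of 9 pairs, the higher gene filled and the lower open, in 8 libraries, 1 point per library, with control at the right. RpS5b lies between 3.10 and 10.48 CPM while RpS5a stays between 1837 and 2306 CPM, and RpS14b is at 131 CPM in scrib BskDN, against 597 CPM in control.

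Genes of the translation apparatus outside the cytosolic ribosome were read from lists. Mitochondrial ribosomal protein genes (prefix mRpL or mRpS), whose products work in a separate ribosome in mitochondria, had 31 of 70 lower and none higher in scrib BskDN over BskDN, where 11.7% of all genes were lower, with a median of -0.54 beside -0.04 over all genes. Over control 54 of the 70 were lower in scrib BskDN, where 17.2% of all genes were lower. They had, in early RasV12 scrib over RasV12, 13 lower and 1 higher, where 10.3% of all genes were lower and 7.96% higher, with a median of -0.12 beside 0.01 over all genes. The lowest were mRpS21, at 5.50 CPM in scrib BskDN, 7.87 CPM in early RasV12 scrib, 51.0 CPM in RasV12 scrib BskDN and 40.6 CPM in control, and mRpL34, at 4.14, 6.57, 26.4 and 27.3 CPM in the same 4 libraries. The 16 with at most 450 coding nucleotides had a median of -1.12 in scrib BskDN over BskDN, and the other 54 a median of -0.44. These medians were -0.73 and -0.05 in early RasV12 scrib over RasV12. Translation initiation factors had 1 of 28 lower and 1 higher in scrib BskDN over BskDN and none called in early RasV12 scrib over RasV12, where 11.7% of all genes were lower and 9.22% higher in that first comparison, with medians of -0.11 and 0.23. Elongation and termination factors had 1 of 11 higher and none lower in scrib BskDN over BskDN, which was eEF1alpha2, an elongation factor of nerve and muscle. It was at 221 CPM in scrib BskDN, 300.3 CPM in late RasV12 scrib and 25.6 CPM in control. In early RasV12 scrib over RasV12, 1 of the 11 was lower and none higher, where 10.3% of all genes were lower. The median of the 11 was -0.12 in scrib BskDN over BskDN and 0.15 in early RasV12 scrib over RasV12. Over control, 1 of the 11 was higher in every library except the scrib mutant library.

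Ribosome biogenesis and RNA polymerase I genes, which make and assemble the ribosomal RNA, were read in the same comparisons. Of 30 genes, 1 was lower and none higher in scrib BskDN over BskDN, where 11.7% of all genes were lower, with a median of -0.15. In early RasV12 scrib over RasV12, where 7.96% of all genes were higher, 4 were higher and none lower, with a median of 0.47. RasV12 scrib BskDN over scrib BskDN had 12 higher and none lower, where 12.3% of all genes were higher, with a median of 0.48. In scrib BskDN over control 7 of the 30 were lower and none higher, where 17.2% of all genes were lower, with a median of -0.43. The gene lower in scrib BskDN over BskDN was Nop10, of 192 coding nucleotides, at 11.2 CPM in scrib BskDN, 30.1 CPM in early RasV12 scrib and 42.8 CPM in control. Non1, a nucleolar GTPase, was at 1039 CPM in early RasV12 scrib, 967 CPM in late RasV12 scrib and 502 CPM in control. Growth regulators had 3 of 19 higher and none lower in scrib BskDN over BskDN, where 9.22% of all genes were higher, and 4 higher and none lower in early RasV12 scrib over RasV12, where 7.96% were. Myc, which drives ribosomal genes in fly larvae, was at 339.9 CPM in scrib BskDN, 471 CPM in early RasV12 scrib, 482 CPM in late RasV12 scrib, 232 CPM in RasV12 scrib BskDN discs, 305 CPM in the scrib mutant library, 279 CPM in RasV12, 272 CPM in BskDN and 230.4 CPM in control. Thor, which encodes a repressor of cap-dependent translation, was at 321 CPM in late RasV12 scrib, 118 in early RasV12 scrib, 93.0 in scrib BskDN and 88.3 in control.

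The list of Xrp1 and stress response genes had 5 of 9 higher and none lower in late RasV12 scrib over control, where 14.2% of all genes were higher, with a median of 1.03. Over control, 2 were higher in early RasV12 scrib, where 7.06% of all genes were, and 1 was higher and 1 lower in scrib BskDN, where 10.4% were higher and 17.2% lower. Xrp1 was at 955 CPM in scrib BskDN, 807 CPM in early RasV12 scrib, 1059 CPM in late RasV12 scrib, 532 CPM in RasV12 scrib BskDN discs, 612 CPM in the scrib mutant library, 443 CPM in RasV12, 459 CPM in BskDN and 519 CPM in control. The 3 highest libraries thus included the 2 with low ribosomal protein mRNAs and late RasV12 scrib, where those mRNAs were near control. Its partner Irbp18 was at 14.7 CPM in scrib BskDN, 21.5 in early RasV12 scrib, 54.6 in late RasV12 scrib and 20.7 in control. GstD1, a glutathione transferase gene, was at 2155 CPM in late RasV12 scrib and 878 CPM in control.

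The genes whose levels over the 8 libraries were most like the mean of the 82 genes were sought among 5469 others with a mean of at least 20 CPM. They were DCTN6-p27 with a Pearson correlation of 0.992, CG18343 with 0.988, cni with 0.988, CG34163 with 0.986 and Srp9 with 0.986. Their coding sequences have 555, 297, 432, 261 and 231 nucleotides. CG18343 was at 9.23 CPM in scrib BskDN, 22.6 CPM in early RasV12 scrib and 37.2 CPM in control, and Srp9 at 27.0, 42.3 and 53.1 CPM in the same 3 libraries. These correlations were not recomputed without the 2 low libraries.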

How the data were processed

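RNA-seq libraries of 8 groups of imaginal discs, 1 per group, were compared. TopHat2 and HTSeq are the tools that the submitters' processing notes name. Their versions, the genome build, the annotation and the strand setting are not given in the sources at hand. The deposited tables hold raw counts per gene, with 5 tally rows of reads outside genes that were left out of library sizes. The libraries held 17152279 to 21027972 counts. Symbols were joined by identifier, with 14639 of 15348 identifiers named; the 709 others held 9.00 to 9.81% of counts. Coding lengths come from canonical transcripts of the BDGP6.54 annotation (Ensembl release 115).

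From these counts, library sizes were scaled by the trimmed mean of M values in edgeR 4.0.16 (R 4.3.3), over 10032 genes with at least 1 CPM in any library, and 12 comparisons of single libraries were made on log2 CPM with a prior count of 2. A gene was called at 1.5-fold and 5 CPM in the higher library, a rule of size and not a test. Fold intervals are exact conditional binomial intervals at 95%, and shares have exact Clopper-Pearson intervals at 95%. They cover counting error only, and PCR copies are not independent molecules. The steps were tested on simulated data. Python 3.11.15, numpy 2.4.6, pandas 2.3.3, scipy 1.17.1 and matplotlib 3.10.9 were used. Other scalings, prior counts, folds and filters were tried as alternatives.

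The genes described, the lists and the comparisons were chosen with earlier results of these data known. Genes named with values are those called in a comparison, the 3 most distant each way per comparison at 20 CPM or more, paralogs, the 5 extremes of level per length and of variation, list genes past 2-fold, and the 5 most alike genes. Other genes of the 82 were named by their role, after their values were seen. Values of 3 of the 82 genes are not reported here by name; they remain in all counts and medians.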

Additional observations from a re-analysis of the deposited data

How the results depend on the processing

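Over 45 results, 289 values under alternative settings stayed close to those reported and 66 moved. A count was taken as close when it changed by no more than 1.5-fold. No median changed sign, while a change of direction was not defined for counts and shares. The median of the 82 genes ran from -0.79 to -0.57 in scrib BskDN over control, from -0.66 to -0.47 in scrib BskDN over BskDN, from -0.22 to -0.14 in early RasV12 scrib over control and from -0.34 to -0.20 in early RasV12 scrib over RasV12. Scaling by library totals alone moved the median of all genes by 0.16 in scrib BskDN over control, 0.17 in scrib BskDN over BskDN and -0.13 in RasV12 scrib BskDN over scrib BskDN, and the differences above are best read relative to it. Small medians moved as well. RasV12 over control gave 0.098 under upper-quartile scaling, 0.102 under library totals and 0.102 with the low-count filter off. BskDN over control gave -0.048 with median-of-ratios size factors and -0.012 with the filter off. RasV12 scrib BskDN over control gave -0.052 under library totals and -0.011 with the filter off. Late RasV12 scrib over control gave -0.072 with median-of-ratios size factors, -0.058 under upper-quartile scaling, -0.062 under library totals and -0.060 with the filter off. The scrib mutant library over control gave 0.136 under upper-quartile scaling and 0.094 under library totals.

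Shares over all genes were computed at 1.5-fold only, so the counts at other thresholds have no background beside them. At 2-fold, 30 genes were lower in scrib BskDN over control and 25 in scrib BskDN over BskDN. That threshold left 12 lower in early RasV12 scrib over control, 11 in early RasV12 scrib over RasV12 and 0 in late RasV12 scrib over control. At 2-fold, 7 were higher in late over early RasV12 scrib, 11 in RasV12 scrib BskDN over early RasV12 scrib, and 0 in early RasV12 scrib over control, early RasV12 scrib over RasV12 and the scrib mutant library over control, with 0 lower in RasV12 scrib BskDN over early RasV12 scrib. At the lower alternative fold threshold, 60 were lower in scrib BskDN over control, 4 in BskDN over control and 1 in RasV12 scrib BskDN over control. It also gave 7 lower in late RasV12 scrib over control, 4 in late over early RasV12 scrib and 5 in RasV12 scrib BskDN over early RasV12 scrib. At that threshold, 5 were higher in early RasV12 scrib over control, 2 in late RasV12 scrib over control, 5 in the scrib mutant library over control, 4 in early RasV12 scrib over RasV12 and 30 in late over early RasV12 scrib. With genes of 100 CPM or more, 0 were higher over control in RasV12, RasV12 scrib BskDN, early and late RasV12 scrib and the scrib mutant library. Without the -like genes, 0 were higher in the scrib mutant library over control and 0 lower in RasV12 scrib BskDN over early RasV12 scrib. The count of lower genes in RasV12 scrib BskDN over early RasV12 scrib was 0 also under upper-quartile scaling and with the filter off. Under library totals 3 were higher in early RasV12 scrib over control. The single gene higher in early RasV12 scrib over RasV12 became 0 under upper-quartile scaling, under library totals, without the 82 genes in the scaling and with the filter off.

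With the tally rows in the total, the share of the 82 genes was 7.58% in scrib BskDN, 9.38% in early RasV12 scrib, 9.14% in late RasV12 scrib, 10.05% in RasV12 scrib BskDN, 11.3% in the scrib mutant library, 11.6% in RasV12, 10.2% in BskDN and 10.6% in control. Without the -like genes it was 9.54%, 11.88%, 13.82%, 14.48%, 16.002%, 15.60%, 13.69% and 14.79% in the same order. Chosen after the data were seen, a restriction to genes over 600 coding nucleotides left 9 lower in scrib BskDN over control and 1 in early RasV12 scrib over control, of 26 such genes, and the median SD was 0.133 without those 2 libraries. Of other genes with over 600 to 900 coding nucleotides, 30.5% and 13.5% were lower in the same comparisons. No paired analysis was possible because each group has 1 library, and leaving out a replicate could not be done. Depth limits mainly RpS5b, RpS19b and RpL22-like.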
